A study of Mus musculus with 16 samples.

Results

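Lamin A/C desert peaks were the lamin A/C peaks annotated as intergenic and far from any deposited gene start. A peak was taken when the deposited annotation placed it between genes, its distance to the nearest annotated transcription start was over 100 kb and its input height was under 10 reads. The rule selected 558 of the 2190 lamin A/C peaks, in a series of 56149 peaks. They were 53 of 188 peaks for Des+/+ basal (28.2%, 95% Wilson interval 22.2 to 35.0%), 194 of 831 for Des-/- basal (23.3%, 20.6 to 26.3%), 151 of 635 for Des+/+ swim (23.8%, 20.6 to 27.2%) and 160 of 536 for Des-/- swim (29.9%, 26.1 to 33.9%). The intervals of the 4 shares overlapped. Values given in the order of the lists follow this sequence.

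The peaks came from chromatin immunoprecipitation of adult cardiomyocytes (heart muscle cells), isolated by enzymatic perfusion from mice aged 3 months. The mice had intact desmin (Des+/+) or lacked it (Des-/-), desmin being the intermediate filament protein of muscle. They were unstressed (basal) or had been made to swim (swim). Each of these 4 groups had 1 lamin A/C library and 1 H3K27Ac library, H3K27Ac being the acetylated histone H3 that marks active promoters and enhancers, and each library had its own input. Chromatin of several mice was pooled in a library, so no difference below has a replicate check, and the intervals cover counting error only. The H3K27Ac lists were used to check the labelled cell type. Of 10 cardiomyocyte genes, 8 carried an H3K27Ac peak within 3 kb of a start in Des-/- swim, and 10 did in each of the other lists. Of 5 endothelial genes, 5 carried one in both basal lists and 3 in both swim lists. Of 5 fibroblast genes, 1 did in both basal lists (Pdgfra) and 0 in the swim lists, and 0 of 4 smooth muscle and pericyte genes and 0 of 4 leukocyte genes did in any list.

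Lamins A and C are splice products of the Lmna gene that form the meshwork lining the inner nuclear membrane and also occur in the nuclear interior. Chromatin at the lamina is typically gene-poor, late replicating, rich in A and T and low in transcription, and it includes arrays of duplicated gene families and genes used in other tissues. Such contacts span broad domains, while the peaks in these lists were narrow.

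Sequences of 5 sites are shown because each was called in 2 or 3 lists and because they differ in how repetitive they are. They are the stretches common to the lists, read from the plus strand of the RefSeq sequence of GRCm38 (mm10), the build of the files. For the site nearest Mir6388, the first 300 bases are shown. Capitals mark bases outside the repeats masked in RefSeq.
Nearest 4931408C20Rik, Des-/- basal and Des-/- swim, chr1:26274657-26274838: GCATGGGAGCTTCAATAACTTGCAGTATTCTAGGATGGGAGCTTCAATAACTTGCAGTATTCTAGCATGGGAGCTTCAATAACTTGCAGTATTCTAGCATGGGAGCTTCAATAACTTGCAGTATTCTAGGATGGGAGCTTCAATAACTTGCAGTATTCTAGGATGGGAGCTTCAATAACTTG
Immunoglobulin heavy chain locus, nearest Mir6388, Des+/+ basal and Des-/- basal, chr12:115205828-115206127: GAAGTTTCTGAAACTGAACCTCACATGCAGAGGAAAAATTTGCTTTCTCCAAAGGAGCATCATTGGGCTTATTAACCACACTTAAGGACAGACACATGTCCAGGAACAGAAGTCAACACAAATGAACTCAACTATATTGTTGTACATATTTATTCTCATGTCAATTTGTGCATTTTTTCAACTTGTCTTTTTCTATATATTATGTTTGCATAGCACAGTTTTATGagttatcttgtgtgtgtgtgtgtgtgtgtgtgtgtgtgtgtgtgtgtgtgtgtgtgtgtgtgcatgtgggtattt
Nearest Zfp997, Des-/- basal and Des+/+ swim, chr13:66004516-66004752: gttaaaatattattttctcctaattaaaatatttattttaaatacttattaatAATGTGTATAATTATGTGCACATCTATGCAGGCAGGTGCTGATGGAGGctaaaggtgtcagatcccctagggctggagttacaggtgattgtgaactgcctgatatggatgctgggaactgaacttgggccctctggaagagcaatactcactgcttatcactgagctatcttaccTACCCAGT
Nearest Gabrg1, Des+/+ basal and Des-/- swim, chr5:70693847-70694055: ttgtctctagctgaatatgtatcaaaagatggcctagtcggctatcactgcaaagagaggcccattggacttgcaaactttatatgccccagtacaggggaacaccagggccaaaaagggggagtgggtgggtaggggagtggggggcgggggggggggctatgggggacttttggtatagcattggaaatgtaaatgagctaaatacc
Nearest Btbd35f10, Des-/- basal, Des+/+ swim and Des-/- swim, chrX:31171498-31171698: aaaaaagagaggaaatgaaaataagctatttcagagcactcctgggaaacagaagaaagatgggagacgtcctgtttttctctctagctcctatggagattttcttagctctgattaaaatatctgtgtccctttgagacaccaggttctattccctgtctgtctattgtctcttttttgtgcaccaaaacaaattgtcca

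In the first of these, all 182 bases lay outside the mask, yet the sequence repeated itself every 32 bases with 98.0% of positions equal. The site of the heavy chain locus carried 225 unmasked bases of the 300, followed by a run of alternating T and G. The sites nearest Gabrg1 and Btbd35f10 were masked throughout. Among all desert peaks, 4 of 558 (0.717%, 0.279 to 1.83%) matched themselves at 80% or more of positions when shifted by 2 to 100 bases. The share was 1.47% (0.990 to 2.18%) in the other lamin A/C peaks.

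The name gene desert was checked against a denser annotation. The deposited distances refer to starts of genes with an Entrez identifier. In GENCODE M21, 437 of the 558 peaks (78.3%, 74.7 to 81.5%) were over 100 kb from every protein-coding start, and 105 (18.8%, 15.8 to 22.3%) were over 100 kb from every start of any kind. A GENCODE transcript was overlapped by 20 peaks (3.58%). The nearest start of any kind was that of a pseudogene for 278 peaks, of which 214 were processed pseudogenes. It was an immunoglobulin segment or its pseudogene for 70, a protein-coding gene for 111 and a long intergenic RNA for 46. Of the 121 peaks within 100 kb of a protein-coding start in GENCODE, 84 were on the X chromosome and 19 on chromosome 4. The label thus held for 437 peaks as far from protein-coding genes, and for 105 as far from any annotated gene. By list, the former share came to 96.2% (87.2 to 99%) for Des+/+ basal, 75.8% (69.3 to 81.3%) for Des-/- basal, 83.4% (76.7 to 88.5%) for Des+/+ swim and 70.6% (63.2 to 77.1%) for Des-/- swim.

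The peaks were low and narrow. Height was read as the number of reads overlapping at the peak, from its whole-number values, since its unit was not given in the sources used here. The lists hold no lamin A/C peak under 8 reads. The median height of desert peaks was 8 reads in each of the 4 lists, against 8 in Des+/+ basal and 9 in the other 3 lists for the other lamin A/C peaks. The highest desert peak had 14 reads for Des+/+ basal, 25 for Des-/- basal, 34 for Des+/+ swim and 22 for Des-/- swim, and every list reached down to the minimum of 8. In all, 309 of 558 (55.4%) stood at exactly 8 reads, a height whose exact 95% Poisson interval is 3.45 to 15.8 reads. Among the other lamin A/C peaks, 675 of 1632 (41.4%) stood at 8 reads. The median input height was 1 read in both Des+/+ lists and 2 in both Des-/- lists. The median width was 200 bp in 3 lists and 208 bp in Des+/+ swim.

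**Figure D1:**
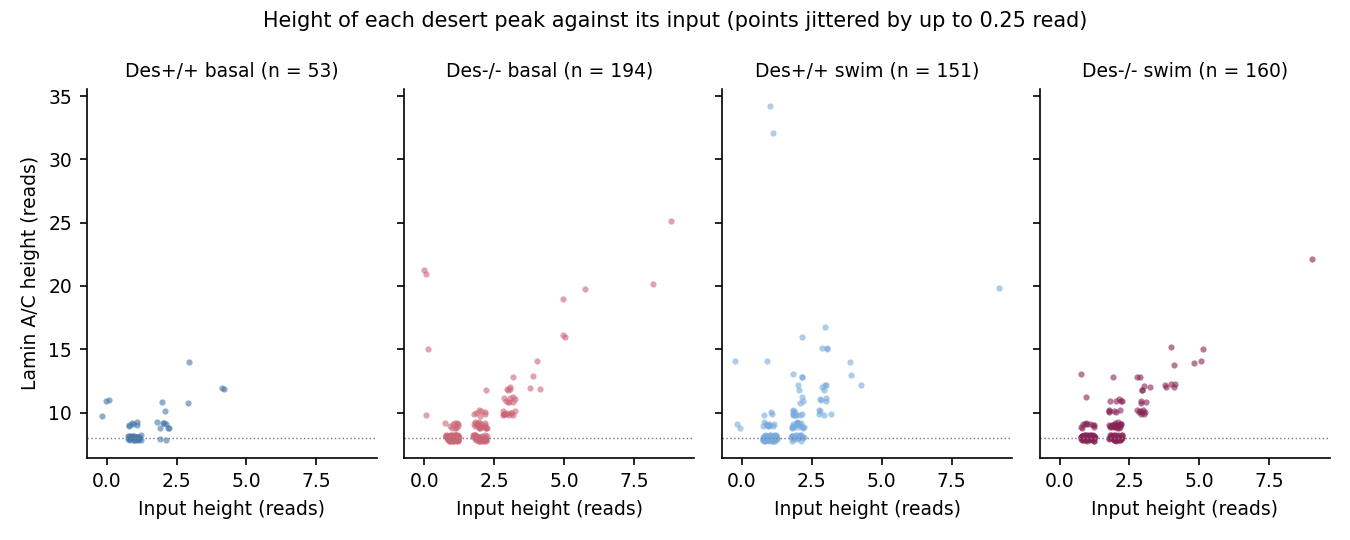
Lamin A/C height in reads (vertical axis) against input height in reads (horizontal axis) for each desert peak, 1 panel per list, with the dotted line at the minimum of 8 reads. Most points lie just above the line in each list, and the point at 34 reads over an input of 1 read belongs to Des+/+ swim.

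Values ran on across both thresholds of the rule. The members nearest the distance limit lay 100206 bp from Sp110 (Des-/- swim, 8 reads) and 100342 bp from 4931408C20Rik (Des+/+ basal, 8 reads), and the nearest peaks left out lay 99680 bp from Mir6388 (Des-/- swim, 10 reads) and 99554 bp from 7630403G23Rik (Des+/+ swim, 8 reads). At an input of 9 reads, just inside, were peaks nearest Or1f19, Setbp1 and Kcnh5, with heights of 25, 20 and 22 reads. The input limit left out 8 peaks. Of these, 4 had inputs of 10 to 14 reads and heights of 25 to 29. The other 4, 1 in each list, were the same site near Lrrc4c, with heights of 199 to 205 reads over inputs of 153 to 156.

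Of the 558 peaks, 106 lay on chromosome 12 and 118 on X. Per 100 Mb of sequence, desert peaks numbered 90.7 on chromosome 12 (exact 95% Poisson interval 74.2 to 110) and 72.2 on X (59.7 to 86.4) over the 4 lists, against 21.1 in the whole genome (19.4 to 22.9). The next chromosomes were 14 with 30.5, 16 with 29.5 and 13 with 26.5, whose intervals overlapped one another. The lowest were 19 with 1 peak (1.72, 0.0435 to 9.57) and 11 with 5 (4.21, 1.37 to 9.83). All of these intervals take peaks as independent, although many peaks lay in clusters and a site called in several lists counts in each.

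Counts on both leading chromosomes were lowest in Des+/+ basal, the list with the fewest peaks. Chromosome 12 held 7 desert peaks for Des+/+ basal, 36 for Des-/- basal, 32 for Des+/+ swim and 31 for Des-/- swim. These were 13.2%, 18.6%, 21.2% and 19.4% of the desert peaks in the order of the lists, and lamin A/C peaks of any kind on chromosome 12 numbered 12 of 188, 75 of 831, 57 of 635 and 53 of 536. The X chromosome held 0 for Des+/+ basal, 40 for Des-/- basal, 30 for Des+/+ swim and 48 for Des-/- swim. As 0 of 53, the Des+/+ basal value leaves room for 5.66% by the allowance of 3 counts used here for counts of 0, or 6.76% by the Wilson upper limit, against shares elsewhere of 20.6% (15.5 to 26.9%), 19.9% (14.3 to 26.9%) and 30% (23.4 to 37.5%). Des+/+ basal had no lamin A/C peak of any kind on X. The deposited false discovery rate depended on the chromosome as well as on the p-value. A p-value listed more than once on a chromosome had 1 rate there, while the p-values listed on several chromosomes, 13, 33, 34 and 25 in the order of the lists, each had more than 1. The largest p-value kept on a chromosome, in places out of few peaks, also differed. In Des+/+ basal it ran from 1e-08 to 0.000509 over the 20 chromosomes with peaks, and in Des-/- basal from 6.61e-05 to 0.000698 over 21. In Des+/+ swim it ran from 1.13e-06 to 0.000698, and in Des-/- swim from 1.99e-05 to 0.000698. The part of these differences in the chromosome counts was not tested.

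Relative to the gene-poor sequence available, the order changed little for chromosome 12 and more for X. Sequence outside every GENCODE transcript and over 100 kb from every start of an Entrez-linked protein-coding transcript amounted to 768 Mb, 29.0% of the genome, and held 459 of the desert peaks. Per 100 Mb of it there were 242 desert peaks on chromosome 12, 83.4 on X, 97.2 on 16, 96.2 on 13 and 59.8 over all chromosomes. On X, 48 of the 118 peaks lay in such sequence. With X, Y and the heavy chain locus set aside, 44, 116, 92 and 88 peaks were left in the order of the lists.

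**Figure D2:**
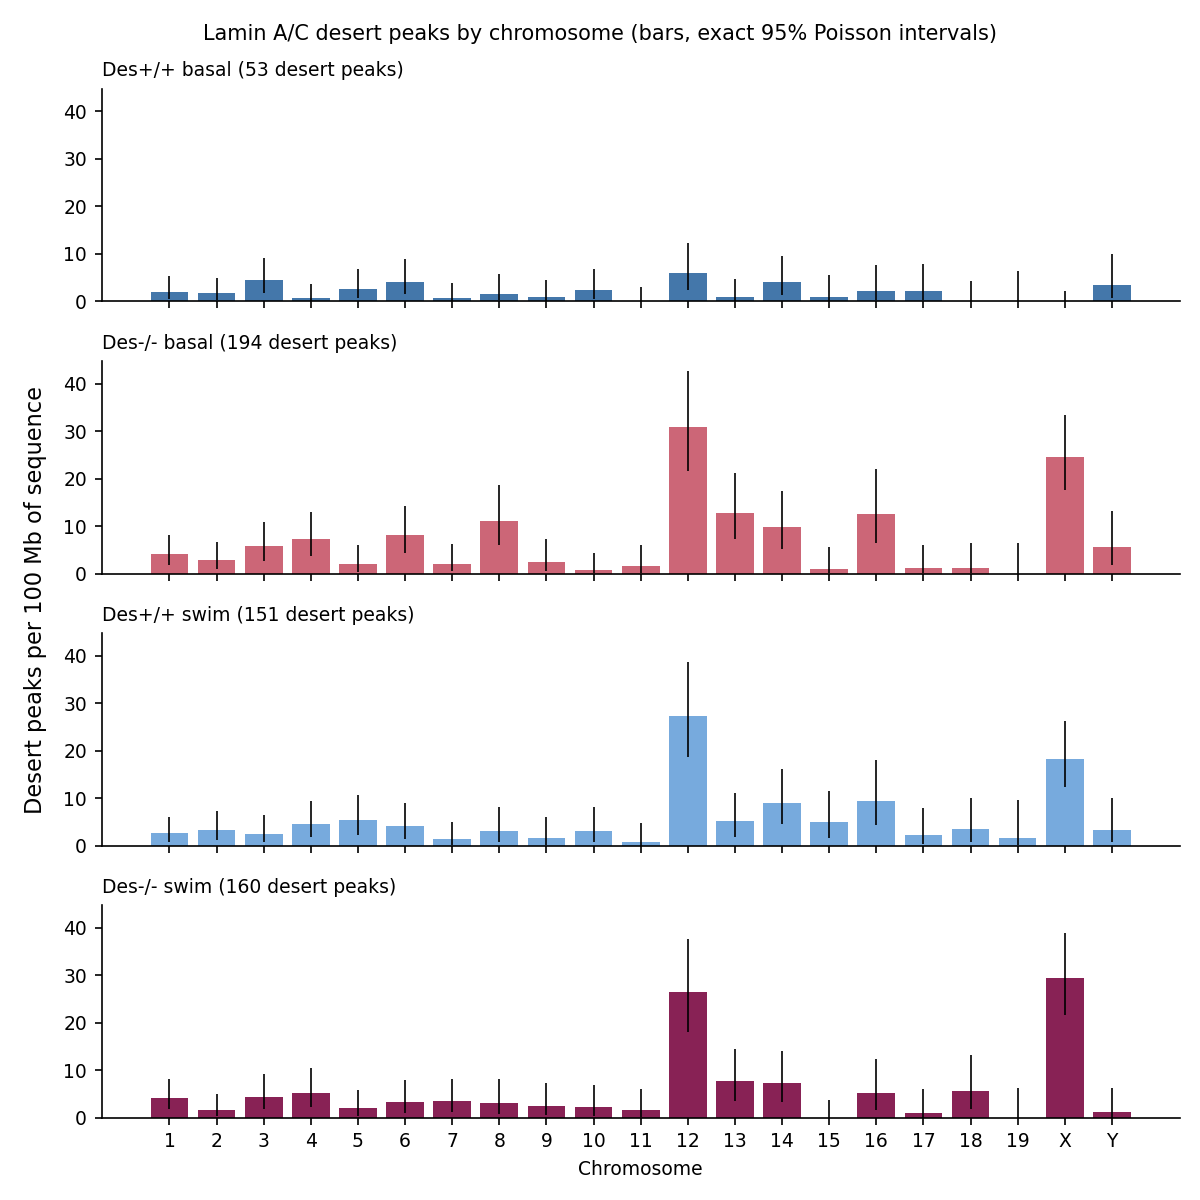
Desert peaks per 100 Mb of sequence (vertical axis) on each chromosome (horizontal axis), 1 panel per list, with exact 95% Poisson intervals as error bars. Chromosomes 12 and X stand above the others in Des-/- basal, Des+/+ swim and Des-/- swim, and the X bar is at 0 in Des+/+ basal.

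The peaks of chromosome 12 lay mainly in the immunoglobulin heavy chain locus (Igh), the array of V, D, J and constant segments that B cells join to make antibodies. The annotated locus, chr12:113254830-116010093, spans 2.76 Mb or 0.104% of the genome and held 88 desert peaks, 15.8% of all (13.0 to 19.0%). By list these were 6 for Des+/+ basal (11.3%, 5.29 to 22.6%), 33 for Des-/- basal (17%, 12.4 to 22.9%), 26 for Des+/+ swim (17.2%, 12 to 24.0%) and 23 for Des-/- swim (14.4%, 9.77 to 20.6%). The intervals of these shares overlapped. A further 59 lamin A/C peaks of the locus were no members, of which 41 were between genes but within 100 kb of a deposited start and 16 lay in exons. The deposited nearest gene was Mir6388 for 65 of the 88, a microRNA gene within the locus, and Mir7094-2 for 12. The locus has 194 V genes and V pseudogenes in GENCODE. The 88 peaks lay between them, at a median gap of 4.09 kb (0.0440 to 14.3 kb) from the nearest, and 79 were within 10 kb of one. They overlapped 0 transcripts.

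Peaks of the heavy chain locus were a little higher than those on X and those outside Igh, X and Y. Of the 88, 43 (48.9%) had 10 reads or more, against 53 of 340 (15.6%) outside Igh, X and Y and 40 of 118 (33.9%) on X. The few peaks on Y had 10 reads or more in 3 of 3, 4 of 5, 1 of 3 and 1 of 1 cases in the order of the lists. Median heights of the heavy chain peaks were 9 reads in both basal lists and 10.0 in both swim lists, over inputs of 1 to 5 reads. Their sequence was mostly unrepeated, with every 100-base window found once in the GRCm38 reference in 71 of 88 peaks. The 88 merged into 78 positions, 9 of which were called in 2 lists. At the position printed above, Des-/- basal had 16 reads over an input of 5 and Des+/+ basal 14 over 3. It was the highest desert peak of Des+/+ basal. H3K27Ac peaks in the locus numbered 0 in both basal lists and 2 in both swim lists. The leukocyte genes had no promoter peak in any list, but they (Ptprc, Cd68, Csf1r and Cd3e) include none particular to B cells. The second antibody gene array, the kappa light chain locus on chromosome 6, held 0, 0, 3 and 2 desert peaks in the order of the lists, all of 8 to 10 reads.

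On the X chromosome 102 of 118 peaks (86.4%) lay in 3 blocks of 4.06 Mb in all. The largest, chrX:31132248-34499315, held 79, which were 0 for Des+/+ basal, 29 for Des-/- basal, 17 for Des+/+ swim and 33 for Des-/- swim. Their nearest genes were mainly of the Btbd35f family, a rodent family of BTB-domain genes in many near-identical copies on X, together with Spin2-ps1, a pseudogene of the spindlin family. Over all blocks, 9 Btbd35f genes were nearest to 85 desert peaks, 33 for Des-/- basal, 16 for Des+/+ swim and 36 for Des-/- swim. Btbd35f10 alone was nearest to 48, with heights of 8 to 17 reads. Its site printed above had 12 reads for Des-/- basal, 17 for Des+/+ swim and 13 for Des-/- swim, over an input of 3 in each. A second site near it, chrX:34337367-34337738, had 8, 15 and 13 reads in the same order. Des+/+ basal had no peak at either.

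**Figure D3:**
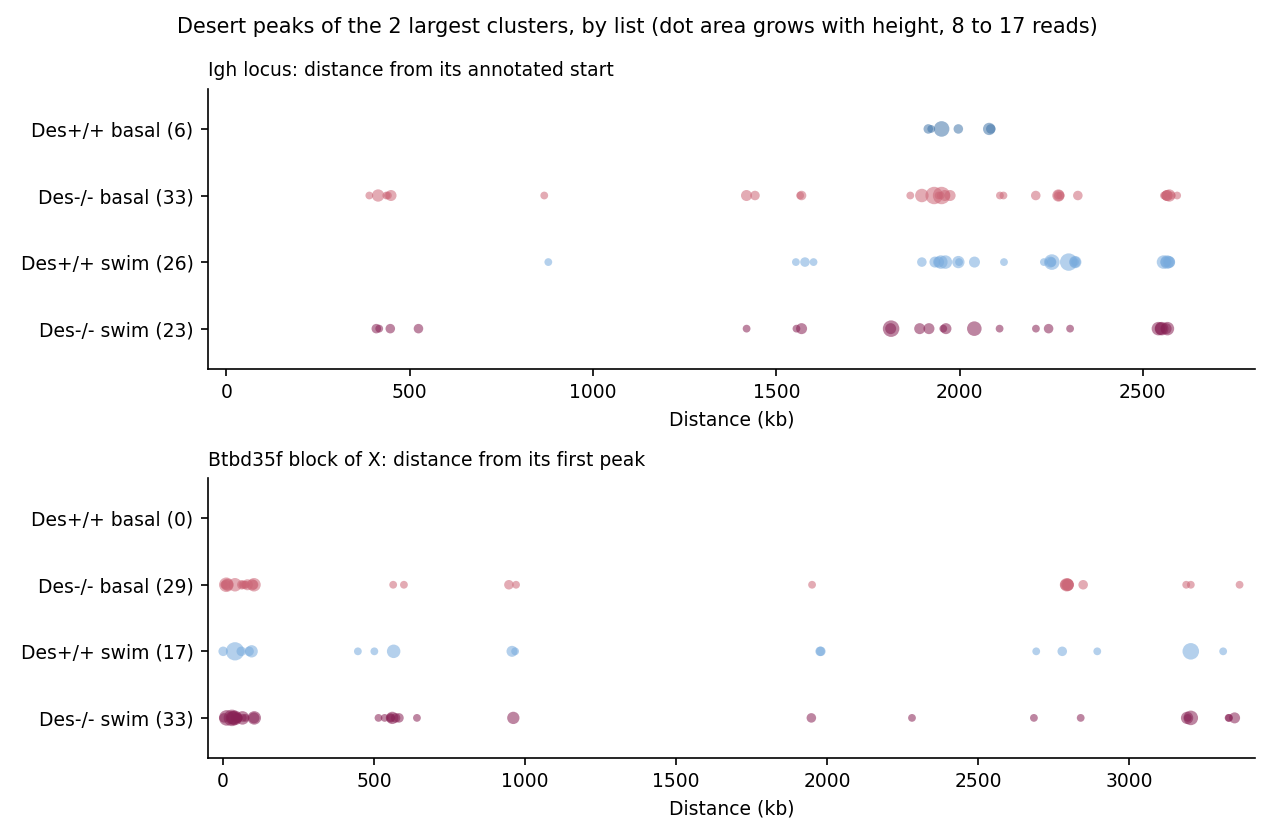
Position of each desert peak (horizontal axis, kb) in the heavy chain locus (upper panel, from the annotated start) and the largest X block (lower panel, from its first peak), 1 row per list, with dot area growing with height. The 6 peaks of Des+/+ basal in the heavy chain locus lie in one stretch of 171 kb, and its row is empty in the X block.

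Sequence repeated elsewhere in the genome set the X block apart from the heavy chain locus. Every 100-base window occurred once in the genome in 289 of 558 desert peaks (51.8%, 47.6 to 55.9%). The share was 64.2% (50.7 to 75.7%) for Des+/+ basal, 51.5% (44.6 to 58.5%) for Des-/- basal, 51.7% (43.7 to 59.5%) for Des+/+ swim and 48.1% (40.5 to 55.8%) for Des-/- swim. Among the other lamin A/C peaks the share was lower, at 43.0% (40.6 to 45.4%), and by list 57.8%, 39.1%, 46.9% and 39.1%. In windows of 200 bp spaced 50 kb apart through the gene-poor sequence it was 80.8% with Y and 87.9% without. On X it was 16 of 118 peaks, and the most repeated window occurred 2 to 9 times in 65 and 10 to 99 times in 31 of them. For 46 of the 558 peaks the most repeated window occurred 100 times or more, and 39 of these lay outside Igh, X and Y. Reads of repeated sequence fit several places and are assigned to 1 of them by the aligner. Their part in the counts was not tested beyond the values with unrepeated peaks alone, which were 34, 100, 78 and 77 in the order of the lists. Median GC content was 41.2% in desert peaks, 43.0% in the other lamin A/C peaks and 39.0% in the windows.

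**Figure D4:**
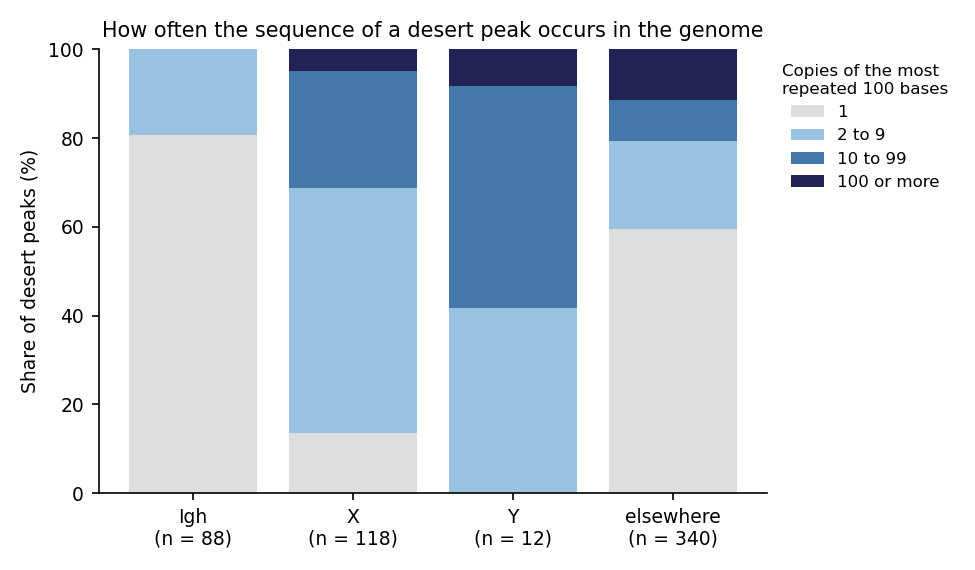
Share of desert peaks (vertical axis, %) whose most repeated 100 bases occur once, 2 to 9, 10 to 99 or 100 or more times in the genome, by region (horizontal axis), over the 4 lists. Of the peaks of Igh 80.7% are of unrepeated sequence, against 13.6% on X and 0 of 12 on Y.

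The 3 highest desert peaks of each list lay in different kinds of sequence. The first 2 of Des+/+ swim, chr13:86757114-86757382 (34 reads, input 1, nearest Cox7c, a subunit gene of cytochrome c oxidase) and chr1:5191526-5191773 (32 reads, input 1, nearest Atp6v1h, a subunit gene of the vacuolar proton pump), were masked throughout and held a window with 1457 copies. No other lamin A/C list had a peak there. A peak of Des-/- swim near Kcnh5, a potassium channel gene, had 22 reads over an input of 9 in unrepeated sequence, and that of Des-/- basal near Or1f19, an olfactory receptor gene, had 25 over 9. Of the other 8, 2 lay in the heavy chain locus, 2 on Y and 1 in the X block. The last 3 were masked throughout, with 20 reads over an input of 9 nearest Setbp1 in Des+/+ swim, and with 12 reads over 4 nearest 1700025K24Rik and nearest Gabrg1 in Des+/+ basal.

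On Y, 11 of 12 desert peaks carried one shared sequence. They lay at 4 positions, and each pair, those at one position included, shared 80 to 265 words of 31 bases. Their GC content was 58.0 to 61.8%, above the median of all desert peaks. The position near Rbmyf9, a gene of a Y-linked family of RNA-binding proteins, was the one locus called in all 4 lists, with 11 reads for Des+/+ basal, 21 for Des-/- basal, 9 for Des+/+ swim and 11 for Des-/- swim. The input was 0 in the first 3 and 1 in the last. The position near Gm20747 had 10 reads for Des+/+ basal, 21 for Des-/- basal and 14 for Des+/+ swim, each over an input of 0. The same words occurred in 11 lamin A/C peaks outside the set. Among them was 1 site per list in an intron of Def8, with 83, 92, 69 and 69 reads over an input of 1, and 1 near F11r with 39, 33, 24 and 24 reads over an input of 1, in the order of the lists. In the H3K27Ac lists 1 peak each carried at least 50 of these words, near Ly6e.

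Desert peaks had few partners in the other lists. A lamin A/C peak of any other list overlapped 6 of 53 desert peaks of Des+/+ basal (11.3%, 5.29 to 22.6%), 24 of 194 of Des-/- basal (12.4%, 8.46 to 17.7%), 16 of 151 of Des+/+ swim (10.6%, 6.63 to 16.5%) and 15 of 160 of Des-/- swim (9.38%, 5.76 to 14.9%). Among all lamin A/C peaks of these lists, 20.7%, 15.8%, 17.2% and 17.7% had such a partner, so the values of desert peaks were no higher than the background. In the basal pair, 4 desert peaks of Des+/+ (7.55%, background 15.4%) and 4 of Des-/- (2.06%, background 3.49%) had a partner in the other genotype. After swim, 5 of Des+/+ (3.31%, background 7.72%) and 5 of Des-/- (3.12%, background 9.14%) did. Between basal and swim, 3 desert peaks of Des+/+ basal (5.66%, background 14.4%) and 3 of Des+/+ swim (1.99%, background 4.25%) had one. In Des-/- these were 11 of the basal list (5.67%, background 7.82%) and 12 of the swim list (7.50%, background 12.1%). Across genotype and swim together, 14 desert peaks of Des-/- basal (7.22%, background 9.75%) had a partner in Des+/+ swim, and 13 of that list (8.61%, background 12.4%) had one in return. Between Des+/+ basal and Des-/- swim, 2 of the former (3.77%, background 11.2%) and 2 of the latter (1.25%, background 3.92%) had one. No direction gave a value above its background.

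Positions where desert peaks of 2 or more lists overlapped numbered 26 of 526, with 58 peaks. Of these, 1 was called in 4 lists, 3 in 3 lists and 22 in 2 lists. They were not spread evenly, with 9 in the heavy chain locus, 8 on X, 4 on Y and 1 each on chromosomes 1, 4, 5, 8 and 13. The pair sharing most was Des-/- basal with Des+/+ swim, at 13 positions, ahead of Des-/- basal with Des-/- swim at 10. The site nearest 4931408C20Rik had 8 reads in Des-/- basal and 9 in Des-/- swim. That nearest Zfp997, a gene of a zinc finger family, had 9 reads in Des-/- basal and 13 in Des+/+ swim. That nearest Gabrg1, which encodes a subunit of the GABA receptor, had 12 reads in both Des+/+ basal and Des-/- swim, over inputs of 4 and 3. Near Gm382 on X, a site had 13 reads in Des+/+ and 14 in Des-/-, both after swim. With gaps of up to 10 kb allowed, 53 groups held peaks of 2 or more lists and 212 of the 558 peaks, and 2 of them held all 4 lists.

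Within a list, neighbours were fewest in Des+/+ basal, for desert peaks and for other lamin A/C peaks alike. Peaks with another desert peak of the list within 1 Mb were 8 of 53 for Des+/+ basal (15.1%, 7.85 to 27.1%), 125 of 194 for Des-/- basal (64.4%, 57.5 to 70.8%), 77 of 151 for Des+/+ swim (51.0%, 43.1 to 58.8%) and 100 of 160 for Des-/- swim (62.5%, 54.8 to 69.6%). A list with fewer peaks has fewer neighbours to find, and for all lamin A/C peaks of the lists the shares with any other peak within 1 Mb were 35.1%, 73.0%, 64.1% and 67.2%. Among the lamin A/C peaks outside the set, a larger set in each list, 36.3%, 71.9%, 63.8% and 66.8% had another such peak within 1 Mb. With any lamin A/C peak of the list as neighbour, the shares of desert peaks were 22.6% (13.5 to 35.5%), 70.6% (63.9 to 76.6%), 60.3% (52.3 to 67.7%) and 65.0% (57.3 to 72.0%). These intervals held the shares of all lamin A/C peaks in each list. Without Igh and X, the shares of desert peaks with another desert peak within 1 Mb fell to 4.26% (1.17 to 14.2%), 43.0% (34.5 to 51.9%), 29.5% (21.2 to 39.3%) and 34.8% (25.7 to 45.2%). Between genotypes, a desert peak of Des-/- lay within 1 Mb of 17 of the 53 desert peaks of Des+/+ basal (32.1%, 21.1 to 45.5%) and of 80 of the 151 of Des+/+ swim (53.0%, 45.0 to 60.8%). For all lamin A/C peaks of these lists, 49.5% and 58.4% lay within 1 Mb of any lamin A/C peak of that Des-/- list, a larger set of possible neighbours.

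Pooled over the lists, peaks linked by gaps under 1 Mb formed 63 groups of 2 or more, while 155 peaks stood alone. The 9 clusters of 8 or more spanned 12.5 Mb and held 259 peaks (46.4%), of which 9 were of Des+/+ basal, 102 of Des-/- basal, 63 of Des+/+ swim and 85 of Des-/- swim. Outside these clusters the lists held 44, 92, 88 and 75 peaks. Apart from Igh and the X blocks, the largest were 2 clusters among zinc finger gene arrays. The one at chr4:146714606-147359043 held 0, 8, 5 and 6 peaks in the order of the lists, nearest Zfp982 among others, and all 19 overlapped a GENCODE transcript. The one at chr13:65486454-66775250 held 0, 9, 4 and 5, nearest Zfp997, Zfp998 and Uqcrb. The cluster nearest 6820431F20Rik and Potefam3e, at chr8:19933729-20102728, held 0, 5, 2 and 3, with 0 of 10 peaks in unrepeated sequence.

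Besides Igh, a pair of the clusters of 8 or more had peaks in all 4 lists. The first, chr14:108599250-112538574, spanned the genes Slitrk1, Slitrk5 and Slitrk6, which encode transmembrane proteins of neurons that shape neurites and synapses. It held 2, 3, 4 and 3 peaks in the order of the lists, all 12 in unrepeated sequence, with heights of 8 or 9 reads and inputs of 1 or 2. Its closest peaks of different lists lay near Slitrk5, at 398 kb from it in Des-/- basal, 399 kb in Des-/- swim and 404 kb in Des+/+ basal. The second, chr16:3114300-3352042, near Or1f19, held 1, 6, 1 and 2 peaks with heights of 8 to 25 reads, 6 of the 10 in unrepeated sequence.

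The 558 peaks had 257 different nearest genes, at a median distance of 244 kb, and 186 of these genes had a single peak. Predicted or unnamed genes were nearest to 119 peaks (21.3%, 18.1 to 24.9%), against 21.2% (19.3 to 23.3%) of the other lamin A/C peaks. By list the share was 34% (22.7 to 47.4%) for Des+/+ basal, 19.1% (14.2 to 25.2%) for Des-/- basal, 19.9% (14.3 to 26.9%) for Des+/+ swim and 21.2% (15.6 to 28.2%) for Des-/- swim. Rodent-expanded families such as Btbd35f were nearest to 103 (18.5%, 15.5 to 21.9%), against 11.6% (10.1 to 13.2%) of other peaks. MicroRNAs, mostly Mir6388 and Mir7094-2 within Igh, were nearest to 85 (15.2%, 12.5 to 18.5%), against 4.90% (3.96 to 6.06%). Olfactory and vomeronasal receptors were nearest to 10 (1.79%, 0.976 to 3.27%), all by Or1f19, against 9.07% (7.77 to 10.6%) of other peaks. Zinc finger, homeobox and forkhead type factors were nearest to 24 (4.30%, 2.91 to 6.32%), against 8.27% (7.03 to 9.71%). Families were assigned by fixed symbol prefixes, so some transcription factor genes, Hnf4g with 4 peaks among them, were not counted there.

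Genes of synaptic adhesion, axon guidance, neurotransmitter receptors, cadherins, contactins and ion channels were together nearest to 42 desert peaks (7.53%, 5.62 to 10.0%), through 27 genes, against 33 of 1632 other lamin A/C peaks (2.02%, 1.44 to 2.83%). By list they were 7 of 53 for Des+/+ basal (13.2%, 6.55 to 24.8%), 11 of 194 for Des-/- basal (5.67%, 3.20 to 9.87%), 11 of 151 for Des+/+ swim (7.28%, 4.12 to 12.6%) and 13 of 160 for Des-/- swim (8.12%, 4.81 to 13.4%). These genes tend to be long and to stand in wide intergenic space, and the rule asks for distance, so membership and family are not independent. By family, leucine-rich synaptic proteins and teneurins were nearest to 3.41% of desert peaks (2.19 to 5.26%) and 0.429% of the others (0.208 to 0.883%). In each of the other families of this group, the intervals of desert and other peaks overlapped. For contactins, neurexins and neuroligins the share was lower in desert peaks (0.358% against 0.613%). The Slitrk genes gave 12 of the 42. Lrrc4c, a synaptic adhesion gene, had 3 peaks, all in Des+/+ swim (8 to 13 reads). Slit2, a secreted axon guidance factor, had 1 in each Des+/+ list, both of 8 reads. Heights in the 6 families ran from 8 to 13 reads except at Kcnh5. Of the cardiac genes listed, Mef2c, a transcription factor of heart muscle, was nearest to 1 peak, in Des+/+ swim (8 reads over an input of 2, at 304 kb). The listed cardiac genes were nearest to 0.179% of desert peaks (0.0316 to 1.01%) and 1.96% of the others (1.39 to 2.75%). That list was fixed by gene symbol and does not hold every gene used in the heart. Kcnd2, counted with the ion channels, and Isl1 and Tbx18, counted elsewhere, were each nearest to a desert peak.

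Desert peaks were far from active chromatin by their medians, as gene-poor sequence was. The median distance to the nearest H3K27Ac peak of the same group was 841 kb for Des+/+ basal, 842 kb for Des-/- basal, 994 kb for Des+/+ swim and 1099 kb for Des-/- swim. For the other lamin A/C peaks the medians were 122, 114, 139 and 172 kb, a difference that the distance rule itself favours. Taken over every base of the gene-poor sequence, the medians were 726, 693, 864 and 831 kb. The H3K27Ac lists of swim held fewer peaks than those of basal, and their part in the longer distances was not tested. On X the median was 3448 kb and in the heavy chain locus 368 kb. On the autosomes the medians were 801, 548, 633 and 524 kb.

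Close contacts were few, and the shares within 10 kb, above those of gene-poor bases, came from few sites. H3K27Ac peaks overlapped 0 of 53 desert peaks for Des+/+ basal (3 counts would be 5.66%, background 2.13% of all lamin A/C peaks), 1 of 194 for Des-/- basal (0.515%, background 3.73%), 0 of 151 for Des+/+ swim (3 counts would be 1.99%, Wilson upper limit 2.48%, background 2.52%) and 2 of 160 for Des-/- swim (1.25%, background 4.10%). Within 10 kb lay 2, 4, 2 and 5 desert peaks in the order of the lists, or 3.77% (1.04 to 12.8%), 2.06% (0.805 to 5.18%), 1.32% (0.364 to 4.70%) and 3.12% (1.34 to 7.11%), with backgrounds of 9.57%, 10.7%, 12.8% and 14.4%. Of the gene-poor bases, 0.572%, 0.584%, 0.334% and 0.303% lay within 10 kb of an H3K27Ac peak, below the interval for desert peaks in each list. These intervals, and those for the wider distances, take peaks as independent. Both peaks of Des+/+ swim, however, lay near the same H3K27Ac peak. A pair of peaks on X in Des-/- basal and a pair on X in Des-/- swim each shared an H3K27Ac peak too. Whether separate sites were more frequent than among the bases was not tested. The share of desert peaks within 100 kb was 3.77% (1.04 to 12.8%), 6.19% (3.57 to 10.5%), 7.95% (4.60 to 13.4%) and 10.0% (6.25 to 15.6%), with backgrounds of 36.7%, 38.0%, 35.6% and 31.3%, against 4.07%, 4.32%, 2.56% and 2.43% of the gene-poor bases. At this distance the interval for desert peaks lay above the value of the bases in both swim lists and held it in both basal lists. Within 1 Mb lay 54.7% (41.5 to 67.3%), 57.7% (50.7 to 64.5%), 50.3% (42.4 to 58.2%) and 48.1% (40.5 to 55.8%) of the desert peaks, with backgrounds of 76.6%, 80.9%, 78.3% and 71.1%, against 60.5%, 61.9%, 55.1% and 56.8% of the gene-poor bases. For the desert peaks wholly inside that sequence, the shares within 100 kb were 3.77%, 5.13%, 7.69% and 9.17%.

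The 3 overlaps were at chr4:147338037-147338319 near Zfp982 in Des-/- basal, and in Des-/- swim at chr12:74804222-74804569 near Kcnh5 and chrX:126773601-126773851 near Gm382. At Zfp982 lamin A/C stood at 13 reads over an input of 4 and H3K27Ac at 17 over 6. At Kcnh5 they stood at 22 over 9 and 27 over 10, and at Gm382 at 14 over 4 and 17 over 1. The inputs at Kcnh5 were near the rule's limit in both assays. In Des+/+ swim, 2 peaks of the heavy chain locus lay 1.73 and 3.77 kb from one H3K27Ac peak of 15 reads.

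**Figure D5:**
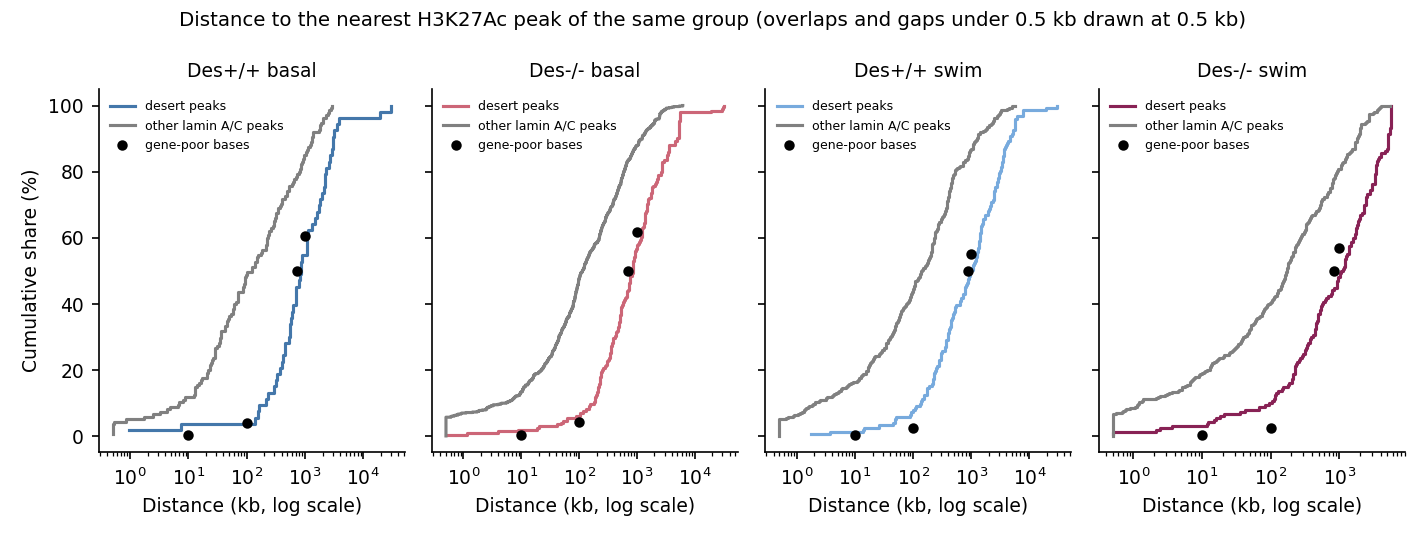
Cumulative share (vertical axis, %) of desert peaks (coloured line) and other lamin A/C peaks (grey line) by distance to the nearest H3K27Ac peak of the same group (horizontal axis, kb, log scale), 1 panel per list, with black dots for gene-poor bases at 10 kb, 100 kb, their median and 1 Mb. The coloured lines run close to the dots and far to the right of the grey lines, with medians of 841 to 1099 kb against 114 to 172 kb.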

How the data were processed

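The series has 16 samples, of which 8 are inputs, and a peak list for each of the 8 precipitated libraries. Per the submitters' processing notes, Bowtie2 2.4.4, SAMtools 1.13 and ChIPseeker 1.36.0 were used with GRCm38 (mm10). Peaks were called by the authors in each library against its input. The deposited height and input height were taken as coverage signals in reads, a unit inferred from their whole-number values. The deposited fold is the ratio of these heights with 1 added to each, and the deposited p-value and false discovery rate belong to each peak. The distance to the nearest start is the authors' score column, in bp. The study's methods give an approximate number of reads per sample, and the totals of single libraries were not used here.

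Members followed the stated rule, and members and gene families were chosen with earlier results of these data known. Regions were named where desert peaks of 2 or more lists overlapped or lay within 10 kb, for the 3 highest peaks of each list and for the largest clusters, and genes as those nearest to them or to peaks of the most lists. Slit2, Lrrc4c, Mef2c, the Def8, F11r and Ly6e sites, the kappa locus and the clusters of 8 or more peaks were named after values were seen. A partner shared at least 1 bp, and distances ran between nearest edges. Copies were counted for every 100-base window on both strands of the GRCm38 reference, and copies in the strain of the mice were not examined. Genes were compared with GENCODE M21. With 1 library per group no test was run. Shares have 95% Wilson intervals, a count of 0 also has an allowance of 3 counts, and counts exact Poisson intervals. Functions were tested on simulated data (Python 3.11.15, numpy 2.4.6, pandas 2.3.3 and scipy 1.17.1).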

Additional observations from a re-analysis of the deposited data

Results flagged for a closer look

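The sign of swim minus basal was opposite in the 2 genotypes for 3 quantities. These differences were not tested, since each rests on 1 library per group. The number of desert peaks was higher by 98.0 after swim in Des+/+ and changed by -34.0 in Des-/-. All lamin A/C peaks went from 188 to 635 in Des+/+ and from 831 to 536 in Des-/-, and the share of desert peaks among them went the other way, from 28.2% to 23.8% and from 23.3% to 29.9%. The share with another desert peak of the list within 1 Mb was higher by 35.9 percentage points after swim in Des+/+ and changed by -1.93 in Des-/-, where the intervals overlapped (57.5 to 70.8% and 54.8 to 69.6%). The share nearest to a predicted or unnamed gene changed by -14.1 percentage points in Des+/+ and by 2.18 in Des-/-, with overlapping intervals in both genotypes. The Des+/+ basal list, with 53 desert peaks and 0 on X, enters each of the Des+/+ values. The part of its smaller size in them was not tested.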

How the results depend on the processing

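No paired analysis was possible because each group had 1 library. The 24 values of the report, 6 quantities in 4 lists, were recomputed 216 times, and 158 stayed within the counting interval of the value or within 1.5 times of a count. The other 58 are given here, and the cause was not tested except where the alternative removes peaks by its construction. A limit of 5 reads or none on the input, an overlap of 50% of the shorter peak, a window of 500 kb and midpoint distances moved no value.

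With peaks of 10 reads or more, the counts were 9 for Des+/+ basal, 48 for Des-/- basal, 46 for Des+/+ swim and 42 for Des-/- swim, with a median height of 11 in each. The shares with a partner in any other list were then 55.6%, 29.2%, 26.1% and 23.8%, against 58.8%, 28.1%, 34.2% and 38.9% of all lamin A/C peaks of 10 reads or more. The shares with another desert peak within 1 Mb were 83.3% for Des-/- basal, 60.9% for Des+/+ swim and 83.3% for Des-/- swim. Predicted or unnamed genes were nearest to 12.5% for Des-/- basal and 11.9% for Des-/- swim, and the median distance to H3K27Ac for Des+/+ swim was 368 kb. Over 200 kb from a start, the counts were 108, 91 and 90 in Des-/- basal, Des+/+ swim and Des-/- swim, and the shares within 1 Mb 50.9%, 41.8% and 50%. Over 50 kb, the median distance to H3K27Ac in Des-/- basal was 564 kb. With H3K27Ac peaks of 30 reads or more, it was 1072 kb for Des-/- basal, 2503 kb for Des+/+ swim and 1525 kb for Des-/- swim. A window of 2 Mb gave 71.1% in Des-/- basal and 58.9% in Des+/+ swim. A gap of up to 10 kb gave partners to 40.2%, 37.7% and 45.6% in Des-/- basal, Des+/+ swim and Des-/- swim, against 48.1%, 44.3% and 55.2% of all lamin A/C peaks of these lists.

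A further 3 alternatives were chosen after seeing the data. With peaks of unrepeated sequence alone, the counts were 34, 100, 78 and 77 in the order of the lists. The shares with a partner were then 2.94% for Des+/+ basal, 6.41% for Des+/+ swim and 5.19% for Des-/- swim, and the shares within 1 Mb were 53.0% for Des-/- basal and 41.6% for Des-/- swim. Without Igh and X, the counts in Des-/- basal, Des+/+ swim and Des-/- swim were 121, 95 and 89.0, the shares nearest to predicted or unnamed genes 30.6%, 27.4% and 34.8%, and the shares with a partner 7.44%, 5.26% and 4.49%. The shares within 1 Mb were 4.26% in Des+/+ basal and 43.0%, 29.5% and 34.8% in the other lists, and the median distance to H3K27Ac in Des-/- basal was 610 kb. With peaks over 100 kb from every protein-coding start of GENCODE, the shares within 1 Mb were 54.4% in Des-/- basal and 47.8% in Des-/- swim. At 8 reads a peak has a counting interval of 3.45 to 15.8 reads, which reaches below the minimum of the lists. Reads at a site in a list without a peak there were not examined. Whether a site called at that height in one list differed in another was thus not tested.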
